A study of Drosophila melanogaster with 12 samples.

Results

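The vacuolar ATPase subunit genes of Drosophila melanogaster were followed in male fly brains that did or did not express TDP-43, with or without knockdown of Atx2. Members were the genes whose symbol starts with Vha followed by AC, M, PPA or a digit, and 31 of the 17562 gene symbols in the count table matched. The pattern leaves out the H subunit, which the table lists as VhaSFD, and also the accessory proteins ATP6AP2 and CG31030 (VhaAC45RP). VhaSFD is described beside the members, and the accessory pair was added after the table had been seen.

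The vacuolar ATPase is a rotary proton pump of endosomes, lysosomes, synaptic vesicles and some plasma membranes. Its cytosolic V1 sector (subunits A to H) hydrolyses ATP and turns a central stalk, and its membrane V0 sector (subunits a, c, c'', d and e) moves protons through a rotating ring of c-type subunits. In neurons the proton gradient drives the loading of synaptic vesicles with transmitter and the acidification of lysosomes. Many fly subunits are encoded by several gene copies, some of which are known mainly from the male germ line.

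The series crossed TDP-43, a human RNA-binding protein that aggregates in amyotrophic lateral sclerosis, with RNA interference (RNAi) against Atx2, an RNA-binding protein that modifies TDP-43 toxicity, to study sleep disruption. Brains of 4 groups were sequenced with 3 libraries each, labelled as biological replicates. Every group carried daughterless-GeneSwitch (DaGS), a broadly acting driver that is switched on by the drug RU486, and every group was fed RU486. Control flies carried DaGS with a hairpin against mCherry (stock BL35785), a sequence flies do not have, or with a hairpin against Atx2 (stock BL44012). TDP-43 flies carried the TDP-43(52s) transgene besides, again with one or the other hairpin. Crosses were kept at 25 °C, males were collected 1 to 2 days after eclosion, and brains were taken after 6 days on the drug. The driver acts in many tissues, so effects on the brain cannot be told apart from effects of other tissues on it. Any difference in background genotype that came with the TDP-43(52s) stock likewise cannot be told apart from an effect of TDP-43. P-values rest on the spread among these 3 libraries per group.

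Libraries held 29184618 to 45104293 counts. Levels are given as CPM, the count scaled to a fixed library total. In control flies Atx2 lay between 343 and 363 CPM under the mCherry hairpin and between 152 and 165 CPM under its own hairpin. In TDP-43 flies the ranges were 267 to 304 CPM and 144 to 163 CPM. The table has 0 symbols for the human transgene, and the eye pigment gene w, which commonly marks fly transgenes, stood at 9.71 to 15.1 CPM in control libraries against 1980 to 2410 CPM in TDP-43 libraries. The labelled tissue was checked with 6 neuron markers, summed at 7970 to 8820 CPM over all libraries, and 7 glia markers, summed at 3060 to 3960 CPM. Markers of other tissues stood apart in some libraries. The 8 gut markers summed to 1470 CPM in replicate 2 of TDP-43 flies with mCherry RNAi and to 641 CPM in replicate 2 of TDP-43 flies with Atx2 RNAi, against 5.9 to 47.2 CPM in the other 10. The 8 fat body markers summed to 1370 to 2970 CPM in control libraries and to 2390 to 10600 CPM in TDP-43 libraries. The 11 muscle markers summed to 108 to 314 CPM in control libraries and to 164 to 656 CPM in TDP-43 libraries.

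Levels separated the family into a highly expressed set with at least 1 gene for every subunit the pattern covers, H being outside it, and a set of nearly silent copies. A gene was called brain-wide at a mean of 10 CPM or more in the control libraries with mCherry RNAi, which held for 17 of the 31 genes. The lowest gene inside this limit was VhaM9.7-c at 11.6 CPM and the highest outside was Vha36-3 at 1.07 CPM, so a limit of 5 CPM chose the same 17 genes. The other 14 were low in these brains. Of these, Vha100-3, Vha16-4 and VhaPPA1-2 had no count in any of the 12 libraries, and Vha100-4, Vha16-2, Vha16-3, Vha16-5, VhaAC39-2 and VhaM9.7-d had at most 3 counts in any library. A count of 0 allows a level of up to 0.0645 to 0.104 CPM (3 counts), for counting error only. Vha14-2 lay between 0.067 and 0.336 CPM, and Vha100-5 had at most 21 counts, reached in replicate 2 of TDP-43 flies with mCherry RNAi. The 10 testis markers summed to 1.87 to 3.49 CPM over the 12 libraries.

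Per length, the brain-wide genes followed a steep order in control brains with mCherry RNAi. Length here is the merged length of all annotated exons of a gene, so the order and the shares of copies depend on the annotation. The 5 leading genes encode c, G, A, B and E, the subunits of which the complex holds several copies. Vha16-1, which builds the proton-carrying ring, stood at 409 ± 20 CPM per kb of exon (SD, n = 3) and Vha13, a G subunit of the peripheral stalk, at 366 ± 34.8 CPM per kb, with overlapping libraries. Next came Vha68-1, the catalytic A subunit, at 287 ± 19.8 CPM per kb and Vha55, the B subunit that completes the nucleotide-binding hexamer, at 253 ± 15 CPM per kb, and these also overlapped each other. Vha26, the E subunit of the peripheral stalk, at 202 ± 7.62 CPM per kb overlapped the small membrane subunit VhaM9.7-a at 187 ± 7.47 CPM per kb. The single-copy rotor and membrane subunits Vha14-1 (F), Vha36-1 (D), Vha100-1 (a), VhaPPA1-1 (c'') and VhaAC39-1 (d) ran from 153 to 123 CPM per kb, each overlapping its neighbour in the order. The accessory VhaAC45 at 108 ± 5.79 CPM per kb overlapped Vha44 (C) at 105 ± 4.8 CPM per kb. VhaSFD, the H subunit outside the pattern, stood at 86.5 ± 4.52 CPM per kb, ATP6AP2 at 192 ± 11 CPM per kb and CG31030 at 226 ± 16.3 CPM per kb.

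**Figure D1:**
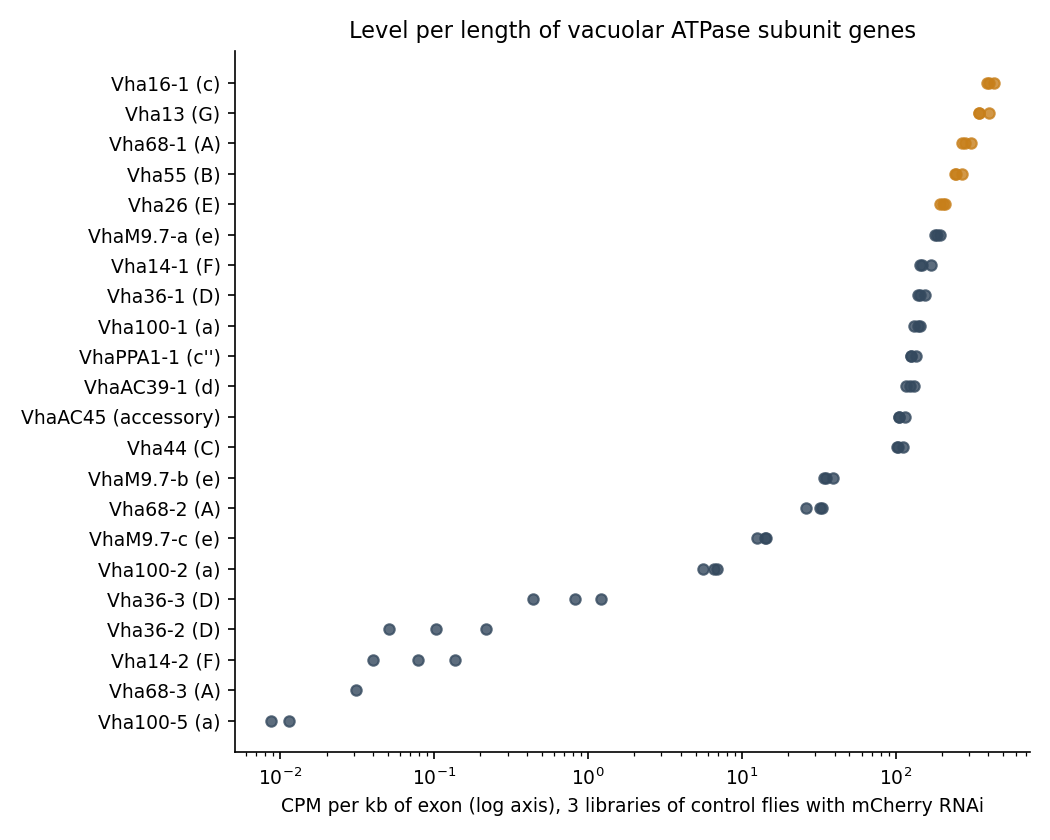
Level per length (CPM per kb of exon, log axis) of the subunit genes with more than 3 counts in some library, 1 point for each of the 3 control libraries with mCherry RNAi, subunit in brackets. The main genes of the subunits present in several copies (c, G, A, B, E; orange) lead the order and the second copies trail from VhaM9.7-b at 36.2 CPM per kb downward; libraries at 0 cannot be drawn on the log axis and are left out.

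The second copies lay well below. VhaM9.7-b stood at 36.2 ± 2.4 CPM per kb, Vha68-2 at 30.6 ± 3.89 CPM per kb, VhaM9.7-c at 13.7 ± 1.06 CPM per kb and Vha100-2 at 6.36 ± 0.721 CPM per kb, each above the next in all 3 libraries. Within subunit A, Vha68-1 held 90.3 ± 1.23% of the level per kb and Vha68-2 held 9.66 ± 1.22%. Within subunit a, Vha100-1 held 95.6 ± 0.632% and Vha100-2 held 4.43 ± 0.629%. Within subunit e, VhaM9.7-a held 78.9 ± 1.42%, VhaM9.7-b 15.3 ± 1.13% and VhaM9.7-c 5.79 ± 0.362%. How reads from near-identical stretches were assigned to copies is not stated, so shares between copies carry that uncertainty.

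Several copies lie beside each other in the genome (dm6). Vha68-2 (2L:12974322-12978607, plus strand) ends 178 bases before Vha68-3 (2L:12978786-12981293, plus strand), and Vha68-1 (2L:13000770-13004107, minus strand) lies on the far side of Yip1d1. Vha100-4 and Vha100-2 on 3R are 517 bases apart, Vha16-3 and Vha16-2 on 3L 985 bases apart, and VhaPPA1-2 and VhaPPA1-1 on 3R 2052 bases apart. Vha100-4 and VhaPPA1-2 had at most 3 counts per library although the copy beside them was brain-wide, and both Vha16-3 and Vha16-2 were at that low level. Exons of Vha100-1 overlap Alg13 and exons of Vha44 overlap Hmgs on the opposite strand, and the strand setting of the counting is not stated, so the values of these genes are uncertain to that extent.

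Under the mCherry hairpin, 8 brain-wide subunit genes were called in TDP-43 against control flies. Of the 17 brain-wide genes, Vha68-1, Vha55, Vha44, Vha100-1, VhaAC39-1 and VhaAC45 fell and Vha100-2 and VhaM9.7-b rose. These 8 are 47.1% of the brain-wide genes, beside 37.6% of the 10738 genes tested (19.2% higher, 18.3% lower) and 41.9% of the 6489 tested genes at 10 CPM or more in the same control libraries, so the share called was near the background. The share lower was 35.3% beside 28.4% of the genes at that level, and the share higher 11.8% beside 13.5%. The median change of the 17 genes was -0.07 on the log2 scale, beside -0.06 over genes at that level and 0.03 over all genes tested. The level summed over all 31 members was 5710 ± 284 CPM (SD, n = 3) in control flies and 5090 ± 243 CPM in TDP-43 flies, with 5540 to 6040 CPM against 4870 to 5350 CPM and no overlap. In bulk tissue, fewer cells of a type and less RNA per cell cannot be told apart.

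**Figure D2:**
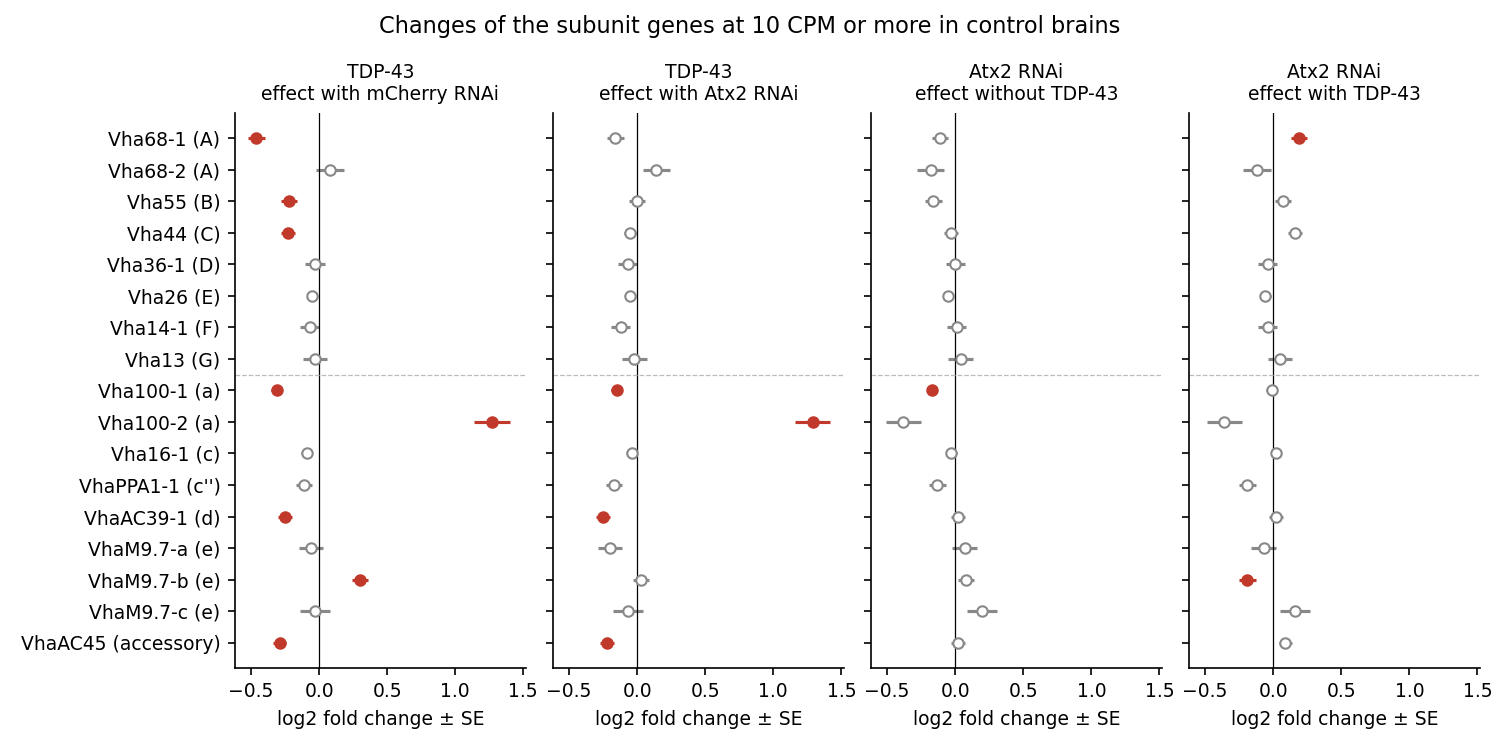
Log2 fold change ± SE of the 17 brain-wide subunit genes in the 4 comparisons of groups, V1 genes above and V0 genes below the dashed line, with filled red points for edgeR adjusted p under 0.05 and open grey points for the rest. Vha100-2 stands out at 1.27 and 1.29 in the TDP-43 comparisons, and the other called changes lie between -0.46 and 0.30.

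In the V1 sector the fall was largest in the A subunit. Vha68-1 (FBgn0265262), which carries the catalytic ATP sites, stood at 827, 751 and 725 CPM in control flies and at 596, 556 and 522 CPM in TDP-43 flies, both with mCherry RNAi. All 3 TDP-43 libraries were below all control libraries, and the change was -0.46 ± 0.06 on the log2 scale (edgeR adjusted p = 8.39e-05). With Atx2 RNAi the levels were 703, 712 and 715 CPM in control flies and 624, 641 and 646 CPM in TDP-43 flies. The groups again did not overlap, but the change of -0.16 ± 0.06 was not called (edgeR adjusted p = 0.0692, DESeq2 adjusted p = 0.0323). It was called in the fit of the 2 groups alone (edgeR adjusted p = 0.0175), without replicate 1 of the control flies with mCherry RNAi (0.0428) and without replicate 3 of the TDP-43 flies with mCherry RNAi (0.0492).

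Vha68-2, the minor A copy, did not follow Vha68-1. It averaged 84.5 ± 10.7 CPM in control flies and 89.6 ± 9.01 CPM in TDP-43 flies with mCherry RNAi (SD, n = 3), a change of 0.08 ± 0.10 on the log2 scale that was not called (edgeR adjusted p = 0.522, 95% interval -0.13 to 0.29). Its share of the A level per kb was 9.49, 8.53 and 11% in control libraries and 11.4, 14 and 15.1% in TDP-43 libraries. With Atx2 RNAi the share was 8.98, 9.14 and 9.66% in control libraries and 10.8, 11.7 and 10.8% in TDP-43 libraries. The TDP-43 libraries lay above the control libraries in both settings, and the shares were not tested.

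Vha55 (FBgn0005671, 3R:12623762-12627829), the B subunit, stood at 754, 679 and 685 CPM in control flies and at 651, 587 and 576 CPM in TDP-43 flies with mCherry RNAi. The groups did not overlap and the change was -0.22 ± 0.06 on the log2 scale (edgeR adjusted p = 0.00862), although it was not called in the fit of those 2 groups alone (edgeR adjusted p = 0.0526). Under the Atx2 hairpin it stood at 638, 617 and 643 CPM in control flies and at 609, 647 and 642 CPM in TDP-43 flies. These overlapped fully, and the change was -0.00 ± 0.06 (edgeR adjusted p = 1, 95% interval -0.12 to 0.12).

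Vha44 (FBgn0287825, 2R:16324813-16336637), the C subunit that joins V1 to V0 and is released when the pump disassembles, stood at 445, 415 and 409 CPM in control flies and at 387, 350 and 343 CPM in TDP-43 flies with mCherry RNAi. The groups did not overlap and the change was -0.23 ± 0.05 on the log2 scale (edgeR adjusted p = 0.00368). With Atx2 RNAi the values were 417, 418 and 410 CPM in control flies and 393, 408 and 403 CPM in TDP-43 flies, and the change of -0.05 ± 0.05 was not called (edgeR adjusted p = 0.555). Reads of the overlapping Hmgs exons could not be separated from it.

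The rotor subunits D and F and the peripheral stalk subunits E and G were not called in either TDP-43 comparison. With mCherry RNAi, Vha36-1 (D) averaged 155 CPM in control and 152 CPM in TDP-43 flies, Vha14-1 (F) 101 and 95.9 CPM, Vha26 (E) 592 and 574 CPM and Vha13 (G) 345 and 338 CPM. Their changes lay between -0.07 and -0.03 on the log2 scale. The interval was narrowest for Vha26, from -0.13 to 0.04, and widest for Vha13, from -0.22 to 0.16. VhaSFD, the H subunit, stood at 259, 236 and 238 CPM in control flies and at 244, 236 and 223 CPM in TDP-43 flies, and was not called at -0.06 ± 0.05 (edgeR adjusted p = 0.322). Without replicate 1 of the TDP-43 flies with mCherry RNAi, Vha14-1 was called at -0.18 (edgeR adjusted p = 0.0398).

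In the V0 sector, the 2 expressed copies of subunit a moved in opposite directions. Subunit a holds the half-channels through which protons enter and leave the ring. Vha100-1 (FBgn0028671, 3R:29131193-29137980), the copy known for its role at fly synapses, stood at 458, 469 and 433 CPM in control flies and at 382, 362 and 352 CPM in TDP-43 flies with mCherry RNAi. All TDP-43 libraries were lower, by -0.31 ± 0.04 on the log2 scale (edgeR adjusted p = 2e-04). With Atx2 RNAi the levels were 399, 405 and 402 CPM in control flies and 359, 371 and 357 CPM in TDP-43 flies. This fall of -0.15 ± 0.04 was called (edgeR adjusted p = 0.0281), but not with any single library of these 2 groups left out: without control replicates 1, 2 and 3 the adjusted p was 0.0675, 0.117 and 0.129, and without TDP-43 replicates 1, 2 and 3 it was 0.114, 0.0754 and 0.113. It was also not called with no filter on low counts (edgeR adjusted p = 0.0665).

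Vha100-2 (FBgn0028670, 3R:18390323-18399169, minus strand), the minor a copy, showed the largest change among the brain-wide genes in both TDP-43 comparisons. It stood at 21.4, 17.9 and 22.3 CPM in control flies and at 39.6, 53.6 and 55.6 CPM in TDP-43 flies with mCherry RNAi. Every TDP-43 library was above every control library, and the gene was 2.42-fold higher, 1.27 ± 0.13 on the log2 scale (edgeR adjusted p = 2.14e-05). Among the genes tested, 12.4% were called and higher by 1.5-fold or more in this comparison. Under the Atx2 hairpin Vha100-2 stood at 15.6, 15.9 and 15.8 CPM in control flies and at 35.4, 43.4 and 36.9 CPM in TDP-43 flies. The rise was 2.45-fold, 1.29 ± 0.13 on the log2 scale (edgeR adjusted p = 3.08e-05). In this comparison 7.79% of the genes tested were called and higher by 1.5-fold or more. Both rises were called under all 18 alternative settings, the first at 1.17 to 1.40.

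The share of Vha100-2 in the subunit a level per kb rose accordingly. With mCherry RNAi it was 4.55, 3.75 and 4.99% in control libraries and 9.56, 13.1 and 13.9% in TDP-43 libraries. Under the Atx2 hairpin the share was 3.83, 3.86 and 3.85% in control libraries and 9.14, 10.7 and 9.54% in TDP-43 libraries. Neither pair of groups overlapped, and Vha100-1 still held 86.1 to 90.8% of the level in every TDP-43 library.

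Some markers of other tissues were also called in the TDP-43 comparisons. Among the 8 fat body markers, 4 rose (50.0%) and 1 fell (12.5%) in TDP-43 flies with mCherry RNAi, beside 19.2% and 18.3% of all genes tested. Their summed levels were 2820, 7590 and 10600 CPM against 1640, 1460 and 2970 CPM in control flies. Among the 11 muscle markers, 4 rose (36.4%) and 1 fell (9.09%), with sums of 205, 624 and 656 CPM against 172, 172 and 314 CPM. The 4 fat body genes that rose were the yolk protein genes Yp1, Yp2 and Yp3 and the female-enriched gene fit, and Lsp1beta, a larval serum protein gene, fell. Yp1 stood at 2.25, 1.64 and 0.994 CPM in control flies and at 844, 2610 and 3740 CPM in TDP-43 flies, so it was far above the control level in every TDP-43 library. Most of the control sum was apolpp, a lipid carrier gene, at 1460, 1340 and 2650 CPM in control flies and 1150, 2570 and 3280 CPM in TDP-43 flies, with overlap. The gut sums were 13.9, 1470 and 47.2 CPM in TDP-43 flies, all above the 5.9 to 8.13 CPM of control flies. With both libraries of high gut markers left out, an alternative chosen after seeing the data, Vha100-2 was still called in both comparisons. The 5 Malpighian tubule markers summed to 144 to 165 CPM in control flies and to 123 to 137 CPM in TDP-43 flies. With Atx2 RNAi, 4 fat body markers rose (50.0%) and 2 fell (25.0%), beside 12.1% and 10.4% of all genes tested. Of the 11 muscle markers, 0 were called higher and 1 was called lower there. By sign 10 were higher and 1 lower, with a median change of 1.30 on the log2 scale, beside 1.47 with mCherry RNAi. The muscle sums overlapped, at 108 to 166 CPM in control flies and 164 to 297 CPM in TDP-43 flies with Atx2 RNAi. The part of these markers in the Vha100-2 rise was not tested.

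**Figure D3:**
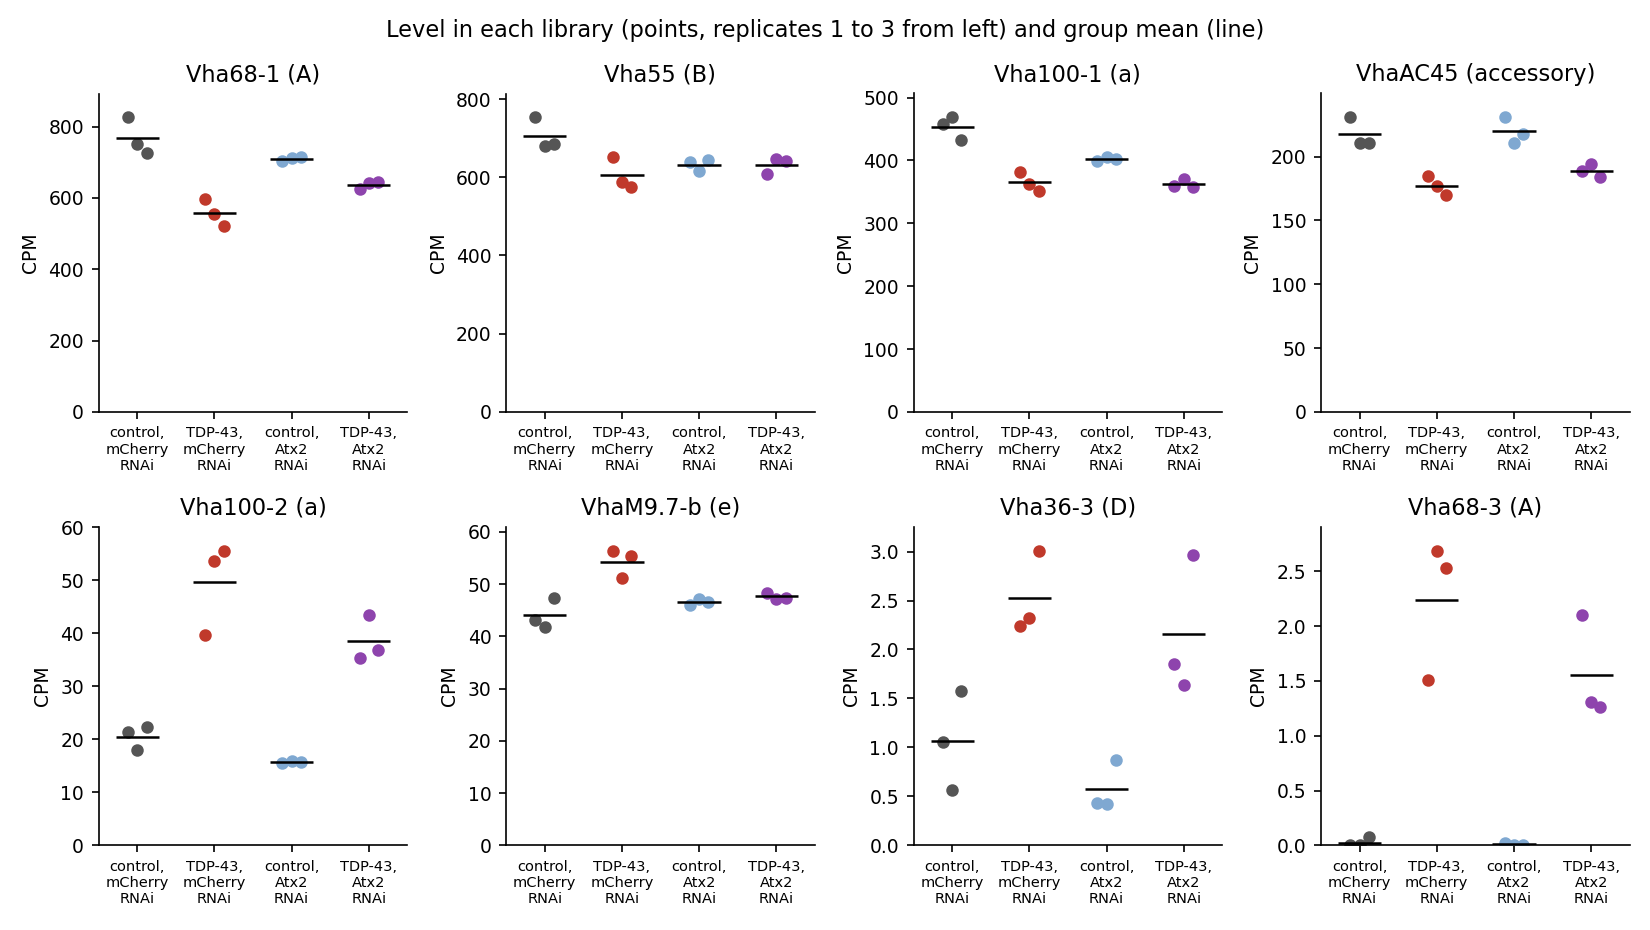
CPM of 8 called subunit genes in each of the 12 libraries (points, replicates 1 to 3 from the left) with the group mean (line), subunit in brackets. Vha68-1, Vha55, Vha100-1 and VhaAC45 are lower in TDP-43 than in control flies with mCherry RNAi, while Vha100-2, VhaM9.7-b, Vha36-3 and Vha68-3 are higher, with Vha68-3 at or near 0 in all 6 control libraries.

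The proteolipid ring genes were not called in the TDP-43 comparisons. With mCherry RNAi, Vha16-1 (c) stood at 1330, 1210 and 1240 CPM in control flies and at 1190, 1210 and 1150 CPM in TDP-43 flies, and overlapped. The change of -0.09 ± 0.04 on the log2 scale had an edgeR adjusted p of 0.125, and DESeq2 called it (adjusted p = 0.0335), as did edgeR without replicate 2 of the TDP-43 flies (adjusted p = 0.0403). VhaPPA1-1 (c'') averaged 175 CPM in control and 162 CPM in TDP-43 flies (edgeR adjusted p = 0.211). The c'' gene stood, with Atx2 RNAi, at 167, 158 and 155 CPM in control flies and at 146, 141 and 141 CPM in TDP-43 flies. These did not overlap, and the change of -0.17 ± 0.06 was not called (edgeR adjusted p = 0.0863). It was called with the replicate number as a block (edgeR adjusted p = 0.0255), in the fit of the 2 groups alone (0.0165) and without replicates 1 (0.0445) or 3 (0.0237) of the TDP-43 flies with mCherry RNAi.

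VhaAC39-1 (FBgn0285910, X:3880748-3882967), the d subunit that couples the central stalk to the ring, fell under both hairpins. It stood at 234, 220 and 210 CPM in control flies and at 196, 188 and 174 CPM in TDP-43 flies with mCherry RNAi, a change of -0.25 ± 0.05 on the log2 scale (edgeR adjusted p = 0.00257). Under the Atx2 hairpin VhaAC39-1 stood at 225, 223 and 227 CPM in control flies and at 183, 194 and 188 CPM in TDP-43 flies, a change of -0.25 ± 0.05 (edgeR adjusted p = 0.00415). Neither pair of groups overlapped, and both falls were called under all 18 alternative settings.

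VhaAC45 (FBgn0262515, 2R:9207561-9209774), the fly relative of the mammalian accessory subunit ATP6AP1, behaved alike in direction. It stood at 231, 211 and 211 CPM in control flies and at 185, 177 and 170 CPM in TDP-43 flies with mCherry RNAi, a change of -0.29 ± 0.05 on the log2 scale (edgeR adjusted p = 0.00094). Under the Atx2 hairpin VhaAC45 stood at 231, 211 and 218 CPM in control flies and at 189, 194 and 184 CPM in TDP-43 flies, a change of -0.22 ± 0.05 (edgeR adjusted p = 0.00899). Neither pair overlapped and both calls held under all 18 alternative settings. The further accessory genes fell with mCherry RNAi as well. ATP6AP2, the (pro)renin receptor, stood at 300, 274 and 270 CPM in control flies and at 241, 224 and 213 CPM in TDP-43 flies (-0.32 ± 0.05, edgeR adjusted p = 0.000598). CG31030 stood at 404, 379 and 350 CPM in control flies and at 330, 312 and 276 CPM in TDP-43 flies (-0.30 ± 0.07, edgeR adjusted p = 0.00397). ATP6AP2 also fell under the Atx2 hairpin, at -0.20 ± 0.05 (edgeR adjusted p = 0.0149), a call lost without control replicates 1 (0.0524) or 3 (0.0585), without TDP-43 replicate 1 (0.0553) and without the libraries of high gut markers (0.0595). CG31030 was not called there, at -0.17 ± 0.07 (edgeR adjusted p = 0.0942).

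The copies of subunit e, a small hydrophobic subunit of V0, differed from each other. VhaM9.7-b (FBgn0028663, 3L:21539862-21541215) stood at 43.1, 41.7 and 47.3 CPM in control flies and at 56.4, 51.2 and 55.3 CPM in TDP-43 flies with mCherry RNAi. The groups did not overlap and the change was 0.30 ± 0.06 on the log2 scale (edgeR adjusted p = 0.00126), called under all 18 alternative settings. With Atx2 RNAi it averaged 46.5 ± 0.59 CPM in control and 47.6 ± 0.578 CPM in TDP-43 flies (SD, n = 3) and was not called at 0.03 ± 0.06 (edgeR adjusted p = 0.727). VhaM9.7-a averaged 133 CPM in control and 127 CPM in TDP-43 flies with mCherry RNAi, and 139 and 121 CPM with Atx2 RNAi, and was not called in either case (edgeR adjusted p = 0.662 and 0.145). VhaM9.7-c averaged 11.6 and 11.4 CPM, and 13.3 and 12.7 CPM, and was likewise uncalled. When replicate 1 of the TDP-43 flies with mCherry RNAi was left out, VhaM9.7-a (-0.21, edgeR adjusted p = 0.0213) and VhaPPA1-1 (-0.18, edgeR adjusted p = 0.0285) were called in the comparison with mCherry RNAi, as was Vha14-1.

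**Figure D4:**
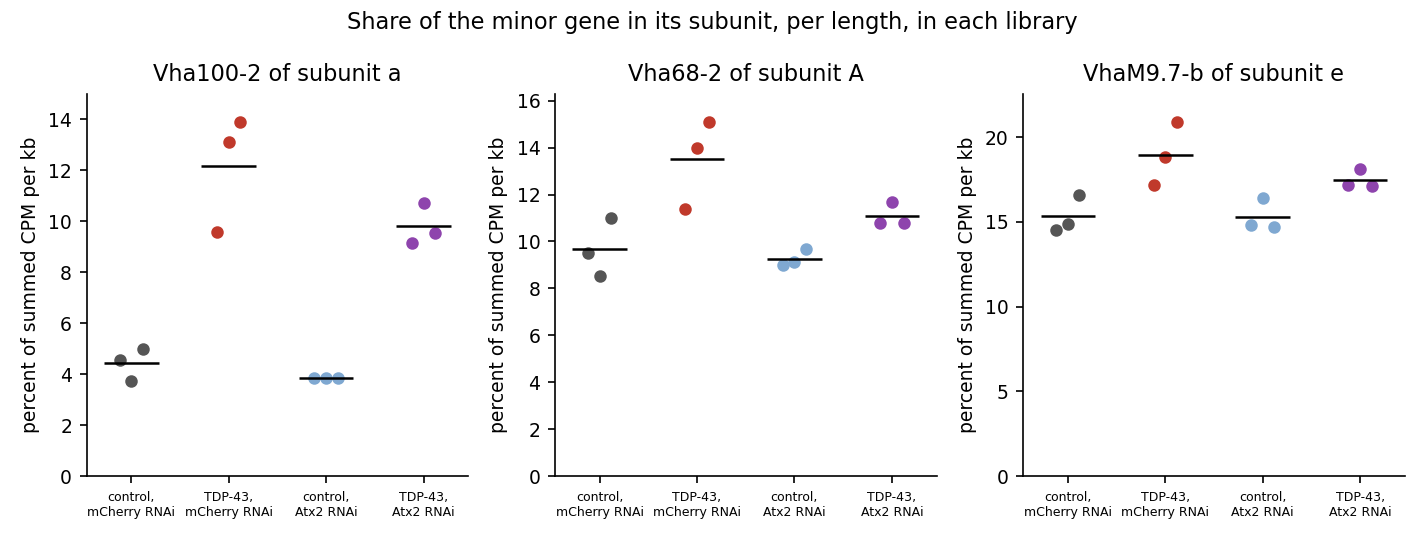
Share of the minor copy in the summed level of its subunit (percent of CPM per kb) in each library, with the group mean as a line, for Vha100-2, Vha68-2 and VhaM9.7-b. The Vha100-2 share is 3.75 to 4.99% in the 6 control libraries and 9.14 to 13.9% in the 6 TDP-43 libraries, and the other shares differ less.

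Among the genes that were low in control brains, Vha68-3 and Vha36-3 were higher with TDP-43. Vha68-3 (FBgn0032464), the A copy directly downstream of Vha68-2, had 3 counts in the control libraries with mCherry RNAi summed and 246 counts in the TDP-43 libraries, a ratio of 71.4 with a 95% counting interval of 24.1 to 348. Its levels were 0, 0 and 0.0765 CPM in control flies and 1.51, 2.69 and 2.53 CPM in TDP-43 flies. With Atx2 RNAi it had 1 count in control flies and 172 counts in TDP-43 flies, a ratio of 162 with an interval of 28.6 to 6420. Its levels in those TDP-43 flies were 2.1, 1.31 and 1.26 CPM. Both intervals cover the counting error of the summed reads only and not the spread between libraries. The gene passed the filter on low counts through the TDP-43 groups alone, so its calls in both comparisons (edgeR adjusted p = 7.17e-05 and 0.000106) are no support for a rule about the family. In TDP-43 flies it held 0.191 to 0.453% of the A level per kb.

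The genes beside Vha68-3 did not rise with it. Under the mCherry hairpin Vha68-2 was not called, as given above, and Yip1d1, the next gene on the other side, averaged 28 CPM without and 29.3 CPM with TDP-43 (0.07 ± 0.07 on the log2 scale, edgeR adjusted p = 0.482). The 10 testis markers summed to 2.12 to 3.49 CPM in control flies and to 1.87 to 2.82 CPM in TDP-43 flies with mCherry RNAi. Most of these sums was betaTub85D, at a mean of 1.83 CPM in control flies and 1.52 CPM in TDP-43 flies. With Atx2 RNAi the 10 markers summed to 2.55 to 3.06 CPM and 2.65 to 3.35 CPM. Of the 10 testis markers 4 were tested, with 0 called under the mCherry hairpin (edgeR, 1 at an unadjusted p under 0.05) and 1 higher in TDP-43 flies under the Atx2 hairpin. That gene, Mst87F, stood at 0.0713, 0.0348 and 0 CPM in control flies and at 0.494, 0.427 and 0.387 CPM in TDP-43 flies, a change of 3.44 ± 0.80 on the log2 scale (edgeR adjusted p = 0.00866). Mst87F passed the filter on low counts through TDP-43 libraries alone, so its call is no support for a rise of testis markers. Under the mCherry hairpin vas (1.60 ± 0.71 on the log2 scale) and Mst87F (1.46 ± 0.69) were higher by sign. There can (-1.18 ± 0.59) and betaTub85D (-0.27 ± 0.25) were lower by sign. Of the low sperm genes, dj was at or under 0.433 CPM and Mst84Db at or under 0.127 CPM in every library. Their part in the result was not tested.

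Vha36-3 (FBgn0040377, X:2579091-2580560), another D copy, stood at 1.06, 0.569 and 1.58 CPM in control flies and at 2.24, 2.32 and 3.01 CPM in TDP-43 flies with mCherry RNAi. The groups did not overlap and the change was 1.22 ± 0.40 on the log2 scale (edgeR adjusted p = 0.0301). The call was lost without control replicates 1 (0.081) and 2 (0.103), without TDP-43 replicates 2 (0.0538) and 3 (0.0943), in the fit of the 2 groups alone (0.0526) and without the libraries of high gut markers (0.0551), all edgeR adjusted p. With Atx2 RNAi it stood at 0.428, 0.418 and 0.868 CPM in control flies and at 1.85, 1.64 and 2.97 CPM in TDP-43 flies. This rise of 1.90 ± 0.41 (edgeR adjusted p = 0.0061) was called under all 18 alternative settings. Vha36-1 held 98.2 to 99.7% of the D level per kb in every library. Vha36-2, the remaining D copy, lay between 0.0619 and 0.595 CPM, at most 25 counts, and was not called in any comparison of the 4-group fit. It passed the filter through the Atx2 RNAi groups, and in TDP-43 flies it was called higher with Atx2 RNAi in the fit of the 2 groups alone (edgeR adjusted p = 0.0426), without replicate 3 of the control flies with mCherry RNAi (0.0486) and without replicate 2 of the control flies with Atx2 RNAi (0.0458). Those calls favour the groups through which the gene passed the filter, so they are no support for an effect of Atx2 RNAi.

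With Atx2 RNAi present in both groups, fewer members were called for TDP-43, and so were fewer of all genes tested (22.5% against 37.6% with mCherry RNAi). Of the 17 brain-wide genes, Vha100-1, VhaAC39-1 and VhaAC45 fell and Vha100-2 rose, which is 23.5% beside 22.5% of all genes tested (12.1% higher, 10.4% lower) and 25.1% of genes at 10 CPM or more. All 8 V1 genes were outside the calls, with 1 of them at an unadjusted p under 0.05, beside 2419 of the 6489 genes at 10 CPM or more. Of the 9 V0 genes, 4 were called, 44.4% beside 25.1% of genes at 10 CPM or more. The sectors were not tested against each other. The median change of the 17 genes was again -0.07 on the log2 scale, beside -0.05 over genes at 10 CPM or more. DESeq2 called 7 of the 31 members here, and edgeR called 6, Vha68-3 and Vha36-3 included. The fit of the 2 groups alone called 10, adding Vha68-1, Vha14-1 (-0.11, edgeR adjusted p = 0.0339), VhaM9.7-a (-0.19, edgeR adjusted p = 0.0194) and VhaPPA1-1.

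Some markers of brain cells were also called in the TDP-43 comparisons. With mCherry RNAi, 2 of 6 neuron markers fell in TDP-43 flies, 33.3% beside 28.4% of genes at 10 CPM or more. They were the synaptic vesicle gene nSyb (-0.34 ± 0.05, edgeR adjusted p = 0.000228) and Syx1A (-0.13 ± 0.05, edgeR adjusted p = 0.0425). By sign, 4 of the 6 were lower and 2 higher. The summed level was 7970 to 8400 CPM against 8510 to 8820 CPM in control flies. Of 7 glia markers, 4 fell (57.1% beside 28.4%) and 1 rose (14.3% beside 13.5%), with sums of 3340 to 3530 CPM against 3580 to 3960 CPM. With Atx2 RNAi, 1 neuron marker fell, 16.7% beside 15.8% of genes at 10 CPM or more, the sums being 8090 to 8420 CPM against 8160 to 8800 CPM. There 3 glia markers fell (42.9% beside 15.8%) and 2 rose (28.6% beside 9.31%), the sums being 3060 to 3160 CPM against 3550 to 3660 CPM. The part of these shifts in the subunit changes was not tested.

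Knockdown of Atx2 in TDP-43 flies changed few members. Vha68-1 rose and VhaM9.7-b fell, 2 of the 17 brain-wide genes or 11.8%, beside 14.0% of all genes tested (7.68% higher, 6.36% lower) and 18.2% of genes at 10 CPM or more. Vha68-1 stood at 596, 556 and 522 CPM with mCherry RNAi and at 624, 641 and 646 CPM with Atx2 RNAi, a rise of 0.19 ± 0.06 on the log2 scale (edgeR adjusted p = 0.0436). VhaM9.7-b stood at 56.4, 51.2 and 55.3 CPM and at 48.3, 47.2 and 47.4 CPM, a fall of -0.19 ± 0.06 (edgeR adjusted p = 0.0419). These groups did not overlap, and both changes were opposite to those seen with TDP-43 and mCherry RNAi. The same TDP-43 libraries with mCherry RNAi enter both comparisons with opposite sign, so opposite directions are not independent of each other.

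Both calls were close to the threshold. The call of Vha68-1 was lost without replicate 2 of the control flies with mCherry RNAi, any of the control flies with Atx2 RNAi, replicates 2 and 3 of the TDP-43 flies with mCherry RNAi or any of the TDP-43 flies with Atx2 RNAi (edgeR adjusted p from 0.0555 to 0.172). The call of VhaM9.7-b was lost without replicate 1 of the control flies with mCherry RNAi, any of the control flies with Atx2 RNAi, replicates 1 and 3 of the TDP-43 flies with mCherry RNAi or any of the TDP-43 flies with Atx2 RNAi (edgeR adjusted p from 0.0518 to 0.132). With the replicate number as a block, which pairs the libraries in this comparison, 4 members were called, adding Vha44 (0.16, edgeR adjusted p = 0.0412) and VhaPPA1-1 (-0.18, edgeR adjusted p = 0.0232). Vha44 was also called without replicate 1 of the TDP-43 flies with mCherry RNAi (0.21, edgeR adjusted p = 0.0114). DESeq2 called 5 members, and edgeR with no filter on low counts called 0. With the filter, 6 of the 20 members tested had an unadjusted p under 0.05, beside 3057 of the 10738 genes tested. The counts of members under the block and DESeq2 have no share over all genes beside them.

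Vha100-2 was not brought back to the control level by Atx2 RNAi. In TDP-43 flies it averaged 49.6 ± 8.75 CPM under the mCherry hairpin and 38.6 ± 4.26 CPM under the Atx2 hairpin (SD, n = 3), with overlapping libraries and a change of -0.36 ± 0.13 on the log2 scale (edgeR adjusted p = 0.082, 95% interval -0.64 to -0.08). DESeq2 called this difference (adjusted p = 0.0497), and so did edgeR without replicate 1 of the TDP-43 flies with mCherry RNAi (-0.50, adjusted p = 0.00716). All 3 TDP-43 libraries with Atx2 RNAi stayed above the highest control library, which was at 22.3 CPM. In control flies the gene averaged 20.5 ± 2.32 CPM under the mCherry hairpin and 15.8 ± 0.192 CPM under the Atx2 hairpin, a change of -0.38 ± 0.13 that was not called (edgeR adjusted p = 0.118) although the groups did not overlap. Without replicate 1 of the TDP-43 flies with mCherry RNAi it was called (-0.40, edgeR adjusted p = 0.024).

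In control flies, knockdown of Atx2 lowered 1 brain-wide gene. Vha100-1 stood at 458, 469 and 433 CPM with mCherry RNAi and at 399, 405 and 402 CPM with Atx2 RNAi, without overlap and with a change of -0.17 ± 0.04 on the log2 scale (edgeR adjusted p = 0.0374). This is 5.88% of the 17 genes, beside 6.17% of all genes tested (3.24% higher, 2.93% lower) and 7.49% of genes at 10 CPM or more. The call was lost without replicates 1 and 2 of the control flies with mCherry RNAi, any of the control flies with Atx2 RNAi or any of the TDP-43 flies with Atx2 RNAi (edgeR adjusted p from 0.0556 to 0.137), with no filter on low counts (0.0538) and in the fit of the 2 groups alone (0.0558). DESeq2 also called Vha55 (-0.17, adjusted p = 0.0262), which stood at 754, 679 and 685 CPM with mCherry RNAi and at 638, 617 and 643 CPM with Atx2 RNAi. The same change of Vha55 had an edgeR adjusted p of 0.137, and of 0.0491 without replicate 1 of the TDP-43 flies with mCherry RNAi.

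Whether the effect of TDP-43 on a subunit differed between hairpins was tested by the interaction. The edgeR test called 0 of the 20 members tested, beside 0.428% of all genes. At an unadjusted p under 0.05 were 5 members, beside 1636 of the 10738 genes tested. DESeq2, which called 506 genes in all, called those 5 members. They were Vha68-1 (0.30 ± 0.08 on the log2 scale, edgeR adjusted p = 0.119, DESeq2 adjusted p = 0.00331), VhaM9.7-b (-0.27 ± 0.08, 0.148 and 0.041), Vha55 (0.22 ± 0.08, 0.216 and 0.0311), Vha100-1 (0.16 ± 0.06, 0.24 and 0.0482) and Vha44 (0.18 ± 0.07, 0.247 and 0.0489). In each of these 5 the TDP-43 effect was smaller in size with Atx2 RNAi than with mCherry RNAi. How often this held among other genes was not tested. For Vha100-2 the interaction was 0.02 ± 0.18 with a 95% interval of -0.38 to 0.41, and for VhaAC39-1 it was -0.00 ± 0.07 with an interval of -0.16 to 0.16.

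Genes that assemble, regulate or use the pump were examined as lists, in TDP-43 against control flies with mCherry RNAi unless stated. Of 6 assembly and regulatory genes, 2 rose and 2 fell, 66.7% called beside 37.6% of all genes tested and 41.9% of genes at 10 CPM or more. Rbcn-3B, a subunit of the rabconnectin complex that promotes pump assembly, rose from 223, 252 and 234 CPM to 311, 320 and 313 CPM (0.41 ± 0.05 on the log2 scale, edgeR adjusted p = 6.02e-05), and Rbcn-3A, its partner, fell from 470, 532 and 514 CPM to 404, 466 and 430 CPM (-0.22 ± 0.06, edgeR adjusted p = 0.011). The fall of Rbcn-3A was not called in the fit of the 2 groups alone (edgeR adjusted p = 0.0666). RNASEK, a pump-associated protein, rose by 0.30 ± 0.09 (edgeR adjusted p = 0.017), a call lost without replicate 1 of the control flies (0.075) or replicate 1 of the TDP-43 flies (0.066). With Atx2 RNAi, Rbcn-3B rose again, by 0.42 ± 0.05 (edgeR adjusted p = 8.28e-05). It was 1 of the 6 genes, or 16.7% called, beside 22.5% of all genes tested. RNASEK was lower there and not called (-0.21 ± 0.09, edgeR adjusted p = 0.104). Rbcn-3A was not called either (-0.05 ± 0.06, edgeR adjusted p = 0.609).

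The 5 vesicular transporters, which exchange protons for transmitter, were all lower in TDP-43 flies, and 4 of them fell, 80.0% beside 28.4% of genes at 10 CPM or more and 18.3% of all genes tested. Only 2 of the 5, VGlut and VAChT, fell under the Atx2 hairpin, 40.0% beside 10.4% of all genes tested. The median change of the 5 was -0.33 on the log2 scale under the mCherry hairpin and -0.08 under the Atx2 hairpin. VGlut, the glutamate transporter, fell from 592, 568 and 567 CPM to 466, 464 and 441 CPM (-0.33 ± 0.04, edgeR adjusted p = 8.41e-05), and VAChT, the acetylcholine transporter, by -0.34 ± 0.05 (edgeR adjusted p = 0.000373). Exons of VAChT overlap ChAT on the same strand and exons of VGlut overlap CG18641 on the other, so their counts may hold reads of both. Also lower was prt, a transporter of the mushroom body, which fell from 34.2, 33 and 27.2 CPM to 21.7, 22.1 and 18 CPM (-0.61 ± 0.10, edgeR adjusted p = 0.000426). In TDP-43 flies with Atx2 RNAi prt stood at 46.4, 43.8 and 41.6 CPM, above every library with mCherry RNAi, and it was higher by 1.09 ± 0.10 than in TDP-43 flies with mCherry RNAi (edgeR adjusted p = 4.37e-05). It was also higher with Atx2 RNAi in control flies, by 0.56 ± 0.09 (edgeR adjusted p = 0.00527).

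Of 10 lysosomal genes, 4 rose and 1 fell, 50.0% called beside 37.6% of all genes tested. Cp1, the cathepsin L of flies, rose from 210, 177 and 252 CPM to 379, 382 and 528 CPM (1.01 ± 0.16 on the log2 scale, edgeR adjusted p = 0.000975), and cathD, the aspartic protease cathepsin D, rose by 0.36 ± 0.05 (edgeR adjusted p = 0.000161). Npc2a, a sterol carrier of the lysosome lumen, fell by -0.55 ± 0.07 (edgeR adjusted p = 0.000124). Exons of Cp1 and cathD overlap other genes. Of 15 genes of the lysosomal TORC1 pathway, for which the pump acts as a platform, 14 were tested, and 1 rose and 2 fell, 21.4% called and so below that background. S6k, the kinase downstream of TORC1, rose by 0.48 ± 0.05 (edgeR adjusted p = 1.58e-05), Iml1 fell by -0.18 ± 0.05 (edgeR adjusted p = 0.0117), not called in the fit of the 2 groups alone (0.0508), and raptor was lower by -0.21 ± 0.07 (edgeR adjusted p = 0.0447). The call of raptor was lost in the fit of the 2 groups alone (0.146) and without control replicates 2 and 3 with mCherry RNAi, control replicates 1, 2 and 3 with Atx2 RNAi, TDP-43 replicates 1 and 3 with mCherry RNAi or TDP-43 replicate 3 with Atx2 RNAi (edgeR adjusted p from 0.0502 to 0.172). Mitf, the transcription factor known to control fly pump genes, was not called at -0.07 ± 0.09 (edgeR adjusted p = 0.579).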

How the data were processed

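The authors deposited 1 table of raw counts, whole numbers of reads per gene in 12 libraries, with no normalisation and 0 other count columns. Per the labels' protocols, libraries were made with a stranded polyA kit and sequenced as paired reads of 150 bases. Trim Galore, the software STAR 2.7.3a, SAMtools, DESeq2 and genome dm6 are listed, without roles, in the submitters' processing notes. The counter, its strand setting and its treatment of reads that match several genes are not given in the sources used here.

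The test was the quasi-likelihood test of edgeR 4.0.16 (R 4.3.3). After filterByExpr, 10738 genes were kept and 6824 left out. TMM scaling gave factors of 0.962 to 1.03, and 1 robust quasi-likelihood fit with a mean per group was made over all 12 libraries, with 8 residual degrees of freedom. Benjamini-Hochberg adjustment ran over the 10738 genes, and a gene was called below 0.05. CPM are counts over the scaled library total; values per kb are divided by the merged exon length. Ensembl annotation in dm6 coordinates gave positions, and 17495 of 17562 symbols, with all 31 members, matched FlyBase. Of the 31 members, 20 passed the filter; 3 of them, Vha36-3, Vha36-2 and Vha68-3, were not brain-wide.

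Members and lists were chosen with earlier results of these data known. All members were named; of each list, up to 3 called genes by adjusted p in the first comparison were named, besides VhaSFD. Mitf, VhaAC45RP (CG31030), ATP6AP2 and single marker genes were chosen after their values were seen. Alternatives were DESeq2 1.42.0 and its size factors, no filter, the replicate block, 2 groups alone, each library left out, and both libraries of high gut markers left out. The edgeR fit was checked on simulated counts. Libraries with the same replicate number deviated together (correlation of deviations from the group mean over 0.1) in 8 of 18 pairs, range -0.333 to 0.623. All 3 pairs passed for Atx2 RNAi against mCherry RNAi in TDP-43 flies and for TDP-43 against control flies with Atx2 RNAi. The main fit did not use this pairing. Only the replicate block, an alternative, took the numbers as pairing, and it did so over all 12 libraries. The labels do not state a shared batch.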

Additional observations from a re-analysis of the deposited data

Results flagged for a closer look

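For Vha68-1 the libraries with Atx2 RNAi lay on opposite sides of those with mCherry RNAi in flies with and without TDP-43. In TDP-43 flies all 3 libraries with Atx2 RNAi were above all with mCherry RNAi (624 to 646 CPM against 522 to 596 CPM), and in control flies all were below (703 to 715 CPM against 725 to 827 CPM). The difference was called in TDP-43 flies (0.19 ± 0.06 on the log2 scale, edgeR adjusted p = 0.0436) and not in control flies (-0.11 ± 0.06, edgeR adjusted p = 0.304, 95% interval -0.24 to 0.01). The interaction was 0.30 ± 0.08 on the log2 scale and was not called by edgeR (adjusted p = 0.119). DESeq2 called it (adjusted p = 0.00331).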

How the results depend on the processing

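Of 19 called member results, 342 values under alternatives were obtained: 292 kept direction and call, 50 kept direction and lost the call, and 0 reversed. Both results of Vha68-3 are among the 19 and lost 0 calls in 18 settings each. That gene passed the filter through the TDP-43 groups alone, so its values are no support for stability. Of 29 called results for the partner genes, 488 of 522 values kept both and 0 reversed. Scaling by DESeq2 size factors moved the median of all genes by at most 0.014 and lost no member call. For TDP-43 with mCherry RNAi, members called were 10, Vha68-3 included, and 8 to 13 under all alternatives. For Atx2 RNAi in TDP-43 flies the 2 members called became 0 with no filter, 5 with DESeq2, 4 with the replicate block, 1 with the 2 groups alone, 0 without the libraries of high gut markers (an alternative chosen after seeing the data) and 0 to 3 with 1 library left out. The 1508 genes called there became 911 with the 2 groups alone, 468 without the gut libraries and 731 to 1664 with 1 library left out. For Atx2 RNAi in control flies the 1 member became 0 with no filter, 2 with DESeq2, 0 with the 2 groups alone, 0 without the gut libraries and 0 to 3 with 1 library left out, and the 663 genes became 282 to 784 with 1 left out. For TDP-43 with Atx2 RNAi the 6 members, Vha68-3 included, became 10 with the 2 groups alone and 5 to 8 with 1 library left out. The 2413 genes became 1576 without the gut libraries and 1616 to 2581 with 1 left out. The interaction called 0 members and 46 genes, with 5 and 506 under DESeq2, 138 genes with the block, 6 without the gut libraries and 10 to 68 with 1 left out. Fewer samples enter the fits with libraries left out; otherwise the cause was not tested. The replicate block changed no call of a member other than Vha44 and VhaPPA1-1. A limit of 20 CPM gave 16 brain-wide genes. Changes of genes under 3 counts could not be measured at this depth.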
